A study of Mus musculus with 2 samples.

Results

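Cxcl12, a chemokine, and its receptors Cxcr4 and Ackr3 were followed through the stromal vascular fraction of mouse epididymal white fat, the cells that remain when fat is digested and the adipocytes are spun away. The genes were chosen by name, and these 3 of the 29417 genes in the transcriptome table each had 1 entry. The mice were male C57BL/6J animals of WT genotype, kept on 1 of 3 feeding schemes, a standard diet lasting 16 weeks or high-fat feeding (HFD) that lasted 8 or 16 weeks. Cells of each suspension carried a hashtag antibody, and all were pooled into 1 run on a microwell bead system (BD Rhapsody, with the TAS-Seq amplification), which gave 1 transcriptome library. The sources used here do not give the age. The table names 9 hashtag populations, A0301 to A0305 and A0307 to A0310, and the sources used here do not tie any of them to a diet. Each is therefore given as an unassigned sample, with its value or with the lowest, median and highest, and no diet comparison was made. With 1 pool there was no replicate and no test, so no p-value is given for any difference.

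CXCL12 is secreted by stromal and vascular cells and held on the proteoglycans of cell surfaces and matrix. It signals through CXCR4, a receptor coupled to inhibitory G proteins that directs the migration and retention of leukocytes and progenitor cells. ACKR3 binds the same ligand but couples mainly to arrestins, and takes the ligand up for degradation, so that it shapes the ligand's gradient. In bone marrow and in fat, cells of the mesenchymal lineage are known sources of CXCL12.

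In the GRCm38 build, Cxcl12 (ENSMUSG00000061353.11) lies on the plus strand of chromosome 6 from 117168535 to 117181367, with 3 coding transcripts of 3 to 4 exons in GENCODE M21. Cxcr4 (ENSMUSG00000045382.6) is on the minus strand of chromosome 1 from 128588199 to 128592293, with 2 coding transcripts of 2 exons. Ackr3 (ENSMUSG00000044337.5) is on the plus strand of chromosome 1 from 90203980 to 90216751, with 2 coding transcripts of 2 to 3 exons. The 250 bases upstream of each start site in RefSeq, which for Cxcr4 lies slightly upstream of the GENCODE one, are printed because the 3 genes were used by different cells of this tissue and Cxcl12 and Ackr3 ran in opposite directions through its fibroblasts. All 3 matched a RefSeq entry of GRCm38.p6, and the windows are chr6:117168285-117168534 on the plus strand for Cxcl12, chr1:128592300-128592549 on the minus strand for Cxcr4 and chr1:90203730-90203979 on the plus strand for Ackr3. Capitals mark the TATA box (TATAAA), the GC box (GGGCGG) and the core of the hypoxia response element (ACGTG or GCGTG), each sought on both strands.
Cxcl12: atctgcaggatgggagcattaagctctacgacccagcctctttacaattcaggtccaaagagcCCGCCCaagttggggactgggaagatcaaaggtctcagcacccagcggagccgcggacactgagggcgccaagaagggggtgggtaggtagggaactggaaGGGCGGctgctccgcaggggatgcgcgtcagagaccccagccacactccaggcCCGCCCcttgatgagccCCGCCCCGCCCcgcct
Cxcr4: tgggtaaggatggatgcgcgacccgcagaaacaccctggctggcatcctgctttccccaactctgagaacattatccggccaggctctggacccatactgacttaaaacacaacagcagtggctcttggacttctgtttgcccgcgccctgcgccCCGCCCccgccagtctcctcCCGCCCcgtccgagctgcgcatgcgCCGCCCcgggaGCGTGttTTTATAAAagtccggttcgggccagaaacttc
Ackr3: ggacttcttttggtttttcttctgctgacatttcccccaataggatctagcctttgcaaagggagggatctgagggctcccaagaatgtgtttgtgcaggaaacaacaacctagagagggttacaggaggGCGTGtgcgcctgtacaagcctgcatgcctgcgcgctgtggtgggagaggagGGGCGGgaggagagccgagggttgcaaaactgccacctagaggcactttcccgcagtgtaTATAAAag
The Cxcl12 window held 5 GC boxes, of which the pair nearest the start shares its last and first base, and neither of the other motifs. The Cxcr4 window held 3 GC boxes, 1 GCGTG and a TATA box read on both strands, whose overlapping matches span bases 32 to 25 upstream of the start. The Ackr3 window held 1 GC box, 1 GCGTG and a TATAAA at bases 8 to 3 upstream. Of 32841 windows of the same length over all genes, 32.7% held a GC box, 12.4% a TATA box and 38.6% a hypoxia response core. GC content was 64.4% for Cxcl12, 61.2% for Cxcr4 and 54% for Ackr3, against a median of 52.4% over all windows. These matches describe letters, and no measurement here shows a factor at any of them.

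The filters kept 10286 cells with a median of 36709 reads and 2763.5 genes each, and the 9 populations held 870 to 1691 cells each before filtering. Clusters were named from marker genes, with the 3 genes themselves left out of the clustering. The names cover 13 classes, and 679 cells (6.60%) in 2 clusters stayed without one. Every defining gene of the classes discussed most passed 20 CPM (reads of the gene per 1000000 reads of the group). This was 10 of 10 for fibroblast-like and macrophage-like cells and 8 of 8 for endothelial-like, T cell-like and mural-like cells. Mesothelial-like cells had 7 of 7. The clusters were named from these same lists, so the naming largely fixed this. The limit was also low, as macrophage-like cells had 8 of the 10 fibroblast genes at 20 CPM. Genes highest in their own class were 10 of 10 for fibroblast-like, 8 of 10 for macrophage-like and 7 of 8 for endothelial-like cells. They were 6 of 8 for T cell-like, 8 of 8 for mural-like and 6 of 7 for mesothelial-like cells. The 7 smaller subclusters called mixed, with 363 cells in all, carried marker genes of another lineage. For macrophage-like subcluster 12 this was the monocyte list (5 of 8 genes), which names none of the 13 classes. Its label need not mean a mixture of cells. Levels are CPM of the reads summed over a group of cells, with exact Poisson 95% intervals that cover counting error only. Reads are not independent molecules, and levels of different genes are not compared with each other. The lowest value above 0 was 6 reads for Cxcl12 and for Ackr3 and 1 for Cxcr4, so a 0 of Cxcl12 or Ackr3 can stand for up to 5 reads, and no upper limit is given for a count of 0. Shares of cells are given after each cell was thinned to 5000 reads, with 1 read counted as detection. Thinning cannot restore values under 6 reads of Cxcl12 or Ackr3. Shares of these 2 genes therefore still depend on depth and can be too low in shallow classes.

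The ligand was a gene of endothelial-like, fibroblast-like and mural-like cells. Cxcl12 stood at 681 CPM (670 to 692) in 1007 endothelial-like cells, 372 (369 to 375) in 3132 fibroblast-like cells and 333 (320 to 345) in 295 mural-like cells, which are the pericytes and smooth muscle of vessels. Thinned shares of cells were 46.7%, 37.5% and 34.2%, and the unthinned share with at least 6 reads was 49.3% of endothelial-like cells (median 14974 reads a cell) and 45.0% of fibroblast-like cells (median 45760.5). Below these came 68 epithelial-like cells at 78.1 CPM, with only 1 population holding at least 10 of them, and 65 lymphatic endothelial-like cells at 23.6. Every other class lay under 8 CPM, from 7.18 in macrophage-like cells to 3.15 in mesothelial-like cells, with none found in the few mature dendritic cell-like and neutrophil-like cells. T cell-like cells had it in 0.664% after thinning at a median of 15051.5 reads. Filling each 0 with 5 reads, the most it could hide, would put macrophage-like cells at 63.0 CPM and T cell-like cells at 243, so the low levels of shallow classes are poorly bounded. The mural-like class also carried the list of 8 endothelial genes at a summed 907 CPM, against 7943 in endothelial-like cells. Its 10 fibroblast genes summed to 3544 CPM, against 43899 in fibroblast-like cells. The part of endothelial or fibroblast RNA in the mural-like Cxcl12 level was not tested.

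Fibroblast-like cells, which were more numerous and deeper, held 75.5% of all Cxcl12 reads, endothelial-like cells 17.2% and mural-like cells 3.42%. Over the 9 populations, endothelial-like cells ranged from 398 CPM in A0304 through a median of 578 to 1065 in A0303. Fibroblast-like cells ranged from 199 in A0302 through 303.7 to 816 in A0310, and mural-like cells from 143 through 304.2 to 442. The ranges overlapped. Endothelial-like cells were above fibroblast-like cells in 8 of 9 populations, the exception being A0310, and above mural-like cells in 9 of 9, while fibroblast-like cells exceeded mural-like cells in only 6. The endothelial-like level was 1.83 times the fibroblast-like level (1.80 to 1.86) in the pool, and 0.617 to 4.63 times within populations. A gene was called different between classes when CPM plus 1 differed by 2-fold with at least 20 CPM in either class. By that rule 33.1% of 8122 genes tested differed between endothelial-like and fibroblast-like cells, 19.0% higher in the former and 14.1% in the latter. Cxcl12, at a log2 ratio of 0.87, was not among them. Without A0310 the ratio was 2.16, and in cells thinned to 5000 reads 2.15, both past the 2-fold limit.

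Cxcl12 separated fibroblast-like from macrophage-like cells widely. The fibroblast-like level was 51.8 times the macrophage-like level (49.7 to 54.1), and 7.74 to 210 times within populations with a median of 41.1. It was 25.7 in thinned cells and 6.74 with each 0 filled by the most it could hide. Between these classes 39.0% of 7747 genes were called, 21.6% higher in fibroblast-like and 17.4% higher in macrophage-like cells. Cxcl12 (log2 ratio 5.51) and Ackr3 (6.79) were called higher in fibroblast-like cells and Cxcr4 (-4.10) higher in macrophage-like cells. Only 156 tested genes had a higher ratio than Cxcl12, and 18 a higher one than Ackr3. The macrophage-like level of Cxcl12 was 30.0 CPM in A0301 and 25.7 in A0302, against 3.77 to 12.9 in the other 7. A0301 and A0302 had the fewest macrophage-like cells (77 and 79). In A0301, 12 of these cells were in the Lyve1-led subcluster described below, at 602 CPM, and the other 65 had 8.16. In A0302, 16 such cells had 121 CPM and the other 63 had 12.3. A0308, A0309 and A0310 held 4, 2 and 0 cells of that subcluster. Its part in the spread between populations was not tested.

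Cxcr4, the signalling receptor, was a gene of leukocytes. It stood at 160 CPM (146 to 174) in 164 natural killer cell-like cells, 139 (126 to 152) in 135 B cell-like cells and 131 (124 to 139) in 452 T cell-like cells. It was 82.5 (66.1 to 102) in 36 mature dendritic cell-like cells, 76.0 (75.0 to 77.0) in 3648 macrophage-like cells and 45.0 in dendritic cell-like cells. The 12 neutrophil-like cells gave 355 CPM, from too few cells to place. Thinned shares were 29.3% of natural killer cell-like, 28.1% of B cell-like, 23.9% of T cell-like and 22.5% of macrophage-like cells. Outside the leukocyte classes endothelial-like cells stood highest at 25.4 CPM, with 5.66% of cells, and fibroblast-like cells had 3.50 CPM with 1.60%. The filling of zeros leaves these values as they are, since Cxcr4 was recorded down to 1 read.

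Natural killer, B and T cell-like levels could not be placed in order. T cell-like cells ranged from 65.1 CPM in A0302 through 148 to 188 in A0305, natural killer cell-like cells from 65.1 to 287 over 8 populations and B cell-like cells from 52.0 to 250 over 6. Natural killer cell-like cells were above T cell-like cells in 3 of 8 populations and B cell-like cells in 3 of 6. Macrophage-like cells varied least, from 58.8 CPM in A0302 through 79.4 to 86.4 in A0309. T cell-like cells exceeded macrophage-like cells in 9 of 9 populations, by 1.11 to 2.41 times, and by 1.72 times (1.63 to 1.83) in the pool, although the ranges overlapped. Of 7601 genes tested between these classes 33.1% were called, 21.3% higher in T cell-like cells and 11.8% in macrophage-like cells, and Cxcr4, at a log2 ratio of 0.78, was not. Cxcl12 and Ackr3 were under 20 CPM in both classes and were not tested. The T cell-like class also carried the list of 10 macrophage genes at a summed 6463 CPM, against 17808 in macrophage-like cells, with none of the 10 at 0. That sum came mostly from mixed subcluster 4 (56 cells, 17266 CPM), as the 3 largest subclusters had 505.6, 359 and 423. Without mixed subclusters the T cell-like Cxcr4 level was 136 CPM and the ratio 1.80. Macrophage-like cells were 35.5% of all cells and 54.8% of all reads and held 81.6% of the Cxcr4 reads, and T cell-like cells 4.22%.

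Ackr3, the scavenging receptor, was highest in fibroblast-like and mesothelial-like cells. Its level was 618 CPM (614 to 622) in fibroblast-like cells, 484 (473 to 494) in 296 mesothelial-like cells, which line the surface of the depot, and 290 (267 to 316) in lymphatic endothelial-like cells. Endothelial-like cells followed with 111 (107 to 116) and mural-like cells with 107 (100 to 115). Thinned shares were 57.1%, 60.5%, 38.5%, 12.6% and 15.3% of cells, and the unthinned share in fibroblast-like cells was 63.3%. Macrophage-like cells were at 4.58 CPM with 1.10% of cells and T cell-like cells at 2.13 with 0.221%. No Ackr3 read was recorded in natural killer, B, mature dendritic or neutrophil-like cells. With 5 reads in each 0 the natural killer cell-like level would be 244 CPM, so these shallow cells set only a loose bound.

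Fibroblast-like cells held 88.1% of the Ackr3 reads and mesothelial-like cells 7.17%. Over populations, fibroblast-like cells ranged from 352 CPM in A0310 through 621 to 780.2 in A0302, mesothelial-like cells from 191 through 454 to 618, and endothelial-like cells from 64.4 through 103 to 187. Fibroblast-like cells were above mesothelial-like cells in 7 of 9 populations with overlapping ranges, and endothelial-like and mural-like cells changed places from population to population (5 of 9). Against endothelial-like cells the fibroblast-like level was 5.55 times as high (5.32 to 5.79), higher in 9 of 9 populations and without overlap, and 2.03 times with each 0 filled. In that comparison Ackr3 was among the 14.1% of genes called higher in fibroblast-like cells (log2 ratio -2.46, endothelial over fibroblast), and Cxcr4 among the 19.0% called higher in endothelial-like cells (2.55).

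Mesothelial-like cells had the scavenging receptor with almost none of the ligand. Cxcl12 was 3.15 CPM there against 372 in fibroblast-like cells, 118-fold lower, and 0 to 8.14 CPM across the 9 populations. With each 0 filled by 5 reads the levels would be 89.0 and 425. Between these classes 22.1% of 7569 genes were called, and 15 had a lower ratio than Cxcl12. Ackr3 was not called. The mesothelial-like class carried the list of 10 fibroblast genes at a summed 17189.5 CPM, 9 of the 10 above 20 CPM, against 43899 in fibroblast-like cells.

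Within the fibroblast-like class the ligand and the scavenging receptor ran in opposite directions. The class held 4 clusters: cluster 1 (1082 cells), led by Ccn3, Efhd1 and Cd55, cluster 2 (1010), led by Inmt, Sult1e1 and Apod, cluster 7 (594), led by Fbln7, C4b and Mdk, and cluster 9 (446), led by Mfap4, Cilp and Col8a1. Cxcl12 was 116 CPM (114 to 119) in cluster 1, 186 (181 to 192) in cluster 9, 334 (328 to 340) in cluster 2 and 994 (984 to 1004) in cluster 7. Ackr3 had the reverse order of the same clusters, 1015 (1007 to 1023) in cluster 1, 571 (562 to 580) in cluster 9, 367 (361 to 374) in cluster 2 and 149 (145 to 153) in cluster 7. Cxcr4 stayed between 2.78 and 3.81 CPM in all 4. Over the 9 populations, cluster 9 ranged from 85.0 to 281 CPM of Cxcl12 and from 365 to 784 of Ackr3. Both ranges overlapped those of clusters 1 and 2, and the Ackr3 ranges of clusters 2 and 7 also overlapped. Cxcl12 was higher in cluster 1 than in cluster 9 in 1 population.

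Cluster 1 was also where Dpp4, the protease that cleaves and inactivates CXCL12 and a marker of progenitors in fat, was highest, at 445 CPM against 56.0 in cluster 2, 30.2 in cluster 7 and 119 in cluster 9. Cd55, another gene of those progenitors, was 2176 CPM in cluster 1 and 170 in cluster 7. Cd55 took part in the clustering and Dpp4, as a gene of the pathway lists, did not. Cluster 7 had 61.7% of the fibroblast-like Cxcl12 reads in 19.0% of the cells, and cluster 1 had 67.9% of the Ackr3 reads in 34.5% of the cells. After thinning, Cxcl12 was found in 73.1% of cells of cluster 7 and 20.7% of cluster 1, and Ackr3 in 23.7% and 89.7%.

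The contrast was present in each population. Cxcl12 in cluster 7 ranged from 511 CPM through 873 to 1385, above the highest value in any other cluster, which was 409 in cluster 2. In cluster 1 it ranged from 67.9 through 123 to 205. The ratio of cluster 7 to cluster 1 was 8.55 (8.34 to 8.76) in the pool and 5.07 to 14.5 in the 9 populations. Ackr3 in cluster 1 ranged from 727 CPM through 1009.8 to 1178 and in cluster 7 from 81.0 through 138 to 306, a ratio of 6.81 (6.63 to 6.996) in the pool and 3.33 to 12.5 in populations. Neither gene's ranges overlapped between the 2 clusters. Of 6977 genes tested between them 9.72% were called, 5.07% higher in cluster 7 and 4.64% higher in cluster 1. Cxcl12 was called higher in cluster 7, where 48 genes had a higher ratio, and Ackr3 higher in cluster 1, where 60 genes were more extreme. Cxcr4 was too low to test.

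Finer clustering gave 11 fibroblast-like subclusters with the same inverse order. Subcluster 2, led by Ccl2, Hk2 and Irf7 and with 6 of 7 progenitor genes, had 49.4 CPM of Cxcl12 and 1228 of Ackr3. Subclusters 3 (led by Rgs16, Cpz and C4b) and 7 (led by Cyp4b1, Fbln7 and Sdc1) had 946 and 1036 CPM of Cxcl12 with 142 and 125 of Ackr3. The other 8 lay between, at 105 to 415 CPM of Cxcl12 and 315 to 969 of Ackr3. Across the 11, log2 levels of Cxcl12 and Ackr3 had a Pearson r of -0.94 and a Spearman rho of -0.95, and both were -0.96 over the 10 left without a mixed subcluster that carried macrophage genes. The points share 1 library and a common clustering, so the coefficient is a description. The summed level of 11 genes induced by tissue dissociation ran from 8630 to 25953 CPM over the subclusters, and the 2 with most Cxcl12 had 25953 and 14218, with subcluster 2 at 18442 between them.

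**Figure D1:**
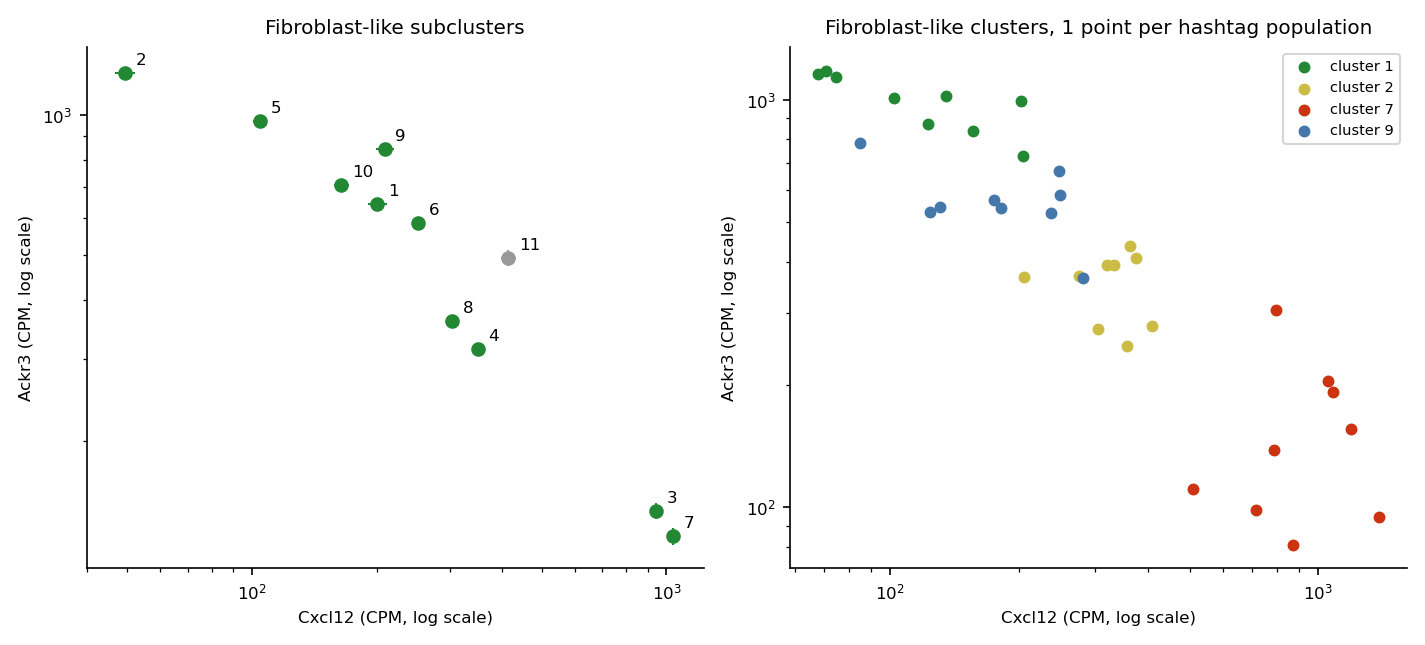
Cxcl12 against Ackr3 in fibroblast-like cells, in CPM on log axes, for the 11 subclusters (left; grey marks the mixed one) and for the 4 clusters in each of the 9 hashtag populations (right). Points run from low Cxcl12 with high Ackr3 to the reverse, and the cluster 7 points lie apart from cluster 1 in all 9 populations.

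Single cells showed a weaker separation than the clusters. After thinning, Ackr3 was found in 43.4% of fibroblast-like cells with Cxcl12 and in 65.2% of those without, and 510 of 3132 cells (16.3%) had both. The direction was the same in each of the 9 populations, from 29.1% against 43.8% in A0309 to 58.6% against 77.1% in A0304. Within clusters the gap was small: 86.6% against 90.6% in cluster 1, 34.0% against 41.9% in cluster 2, 58.9% against 65.1% in cluster 9 and 23.7% against 23.8% in cluster 7. In endothelial-like cells Ackr3 was found in 12.8% of cells with Cxcl12 and 12.5% of those without, and ligand and Cxcr4 were found together in 25 of 1007 cells (2.48%).

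The fibroblast-like level of the ligand differed 4.10-fold between populations, and the mix of clusters moved with it. In A0308, A0309 and A0310 Cxcl12 was 613, 514 and 816 CPM and Ackr3 455, 384 and 352. In the other 6 populations Cxcl12 was 199 to 348 CPM and Ackr3 585 to 780.2. Cluster 7 supplied 43.4%, 47.9% and 49.9% of the fibroblast-like reads in A0308, A0309 and A0310 and 6.76% to 23.0% in the other 6. With each population's clusters weighted as in the pool, Cxcl12 ran from 257 CPM in A0303 to 516 in A0310, a 2.01-fold range, and Ackr3 from 488 to 699.5, a 1.43-fold range where the measured one was 2.22-fold. At the pool's mix A0309 had 332 CPM of Cxcl12, below A0301 (386) and A0305 (415). Fewer cells of a state and fewer transcripts per cell are separated by this weighting only as far as the 4 clusters are uniform inside.

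**Figure D2:**
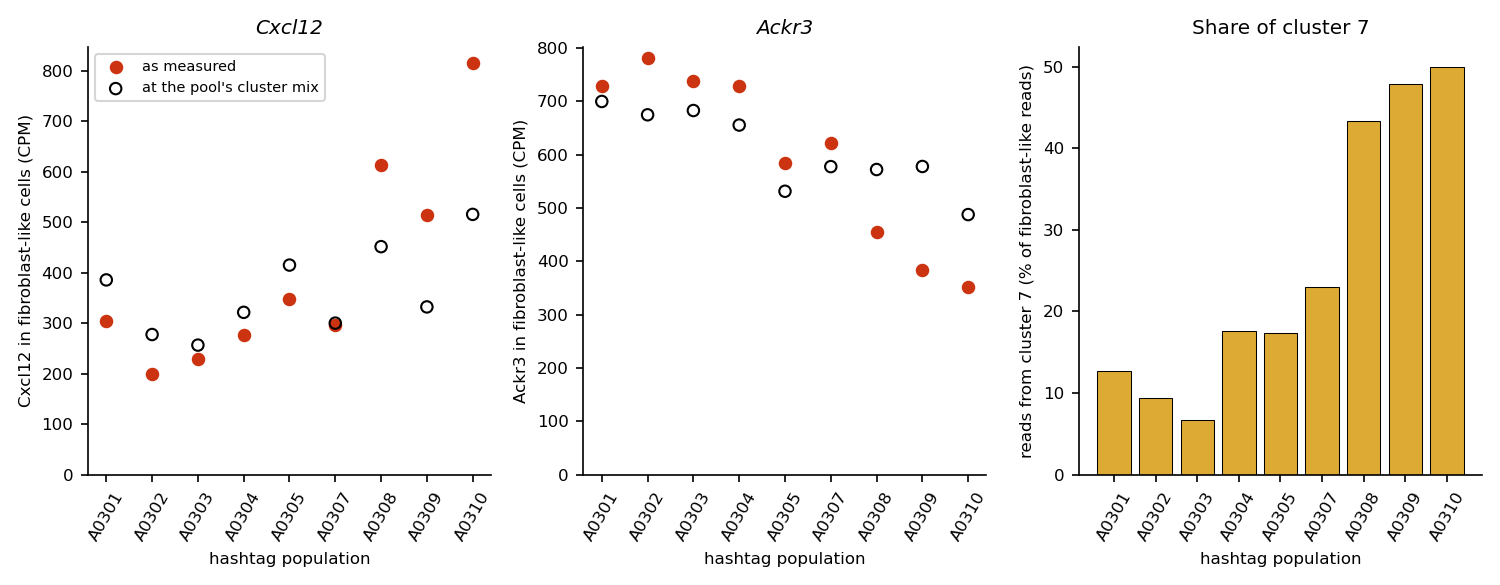
Fibroblast-like Cxcl12 and Ackr3 in CPM for each hashtag population as measured (filled) and with the 4 clusters weighted as in the pool (open), and the percent of fibroblast-like reads in cluster 7. A0308, A0309 and A0310 had the most Cxcl12, the least Ackr3 and 43.4% to 49.9% of their reads in cluster 7.

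Among endothelial-like cells the ligand was high in capillary and arterial groups and low in the venous groups. Cluster 5 (855 cells) had 814 CPM (800.0 to 828) of Cxcl12 and cluster 19 (152 cells) 249 (235 to 264), a 3.27-fold ratio. The cluster 5 level ran from 431 through 671 to 1257 over 9 populations and the cluster 19 level from 150.2 through 312 to 370.3 over 7, without overlap. Cxcr4 was also higher in cluster 5, with 32.0 CPM (29.3 to 34.9) in cluster 5 and 3.74 (2.22 to 5.91) in cluster 19, higher in 7 of 7 populations without overlap (11.4 to 50.6 against 0 to 11.0). Ackr3 was at 109 and 119 CPM. Of 7826 genes tested between these clusters 19.3% were called, 12.5% higher in cluster 5 and 6.76% higher in cluster 19, and Cxcl12 and Cxcr4 were called higher in cluster 5.

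Subclusters resolved this further. Arterial subcluster 2, led by Gja5 and with 9 of 9 arterial genes, had 987 CPM of Cxcl12, and the 5 subclusters with 6 or 7 of 7 capillary genes and fewer arterial ones had 624 to 1409. Subcluster 5 of these, at 1152, was led by Hspa1a and immediate early genes and had 22893 CPM of the dissociation list. Over the 11 subclusters that list ran from 1855 CPM in subcluster 1 (818 CPM of Cxcl12) to 30697 in subcluster 11 (264). Subcluster 7, with the most Cxcl12, had 2523 CPM of the list. Subcluster 4, led by Cadm3 and Ackr1, the atypical receptor of venules, and with 5 of 7 venous genes, had 254 CPM of Cxcl12 and the lowest Cxcr4, 2.92. Cycling subcluster 9, led by Cdk1 and Mki67, had the lowest Cxcl12, 171, together with 51.9 CPM of Cxcr4, a level passed only by the 18 cells of subcluster 10 (85.8), which were led by immune genes such as Tyrobp. Ackr3 ranged from 52.4 to 218 CPM. Over the 11 subclusters the r with Cxcl12 was 0.28 for Cxcr4 and -0.25 for Ackr3, both too weak to give an order.

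**Figure D3:**
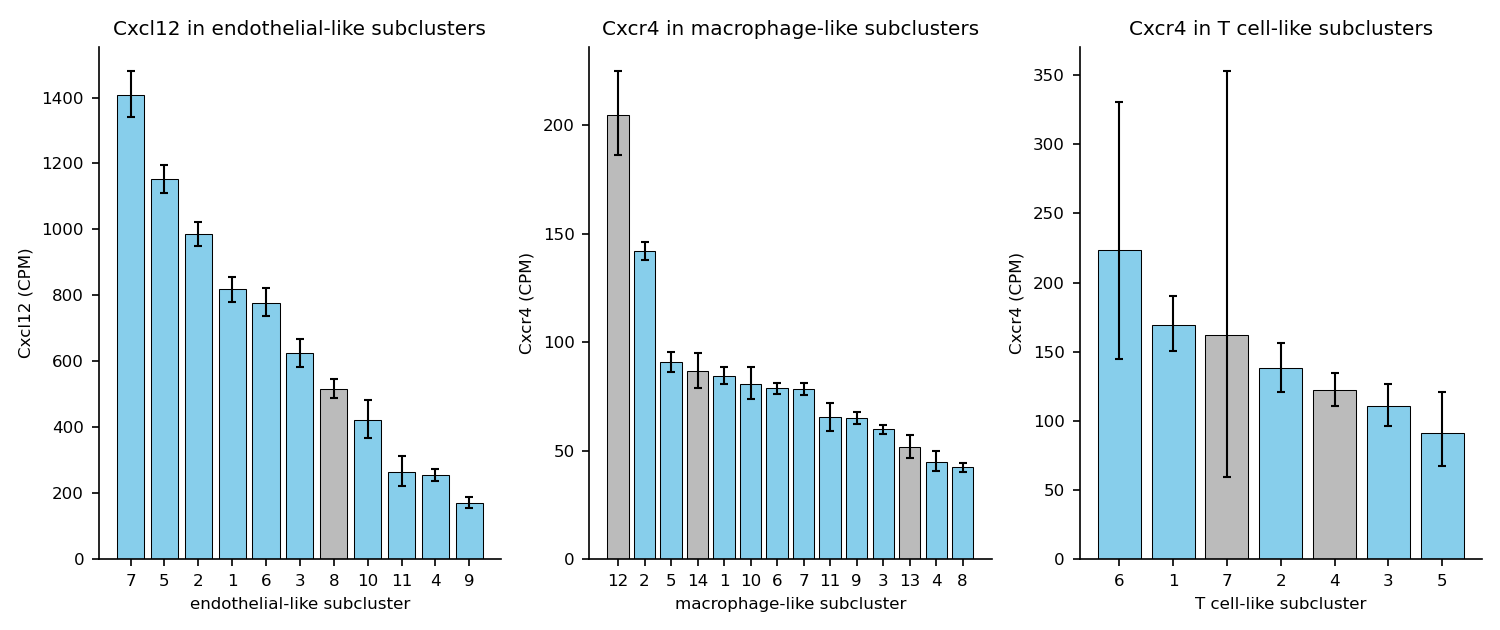
Cxcl12 in endothelial-like subclusters and Cxcr4 in macrophage-like and T cell-like subclusters, in CPM; bars are levels of summed reads in falling order, error bars exact Poisson 95% intervals, and grey bars mixed subclusters. Cxcl12 ran from 1409 CPM in subcluster 7 to 171 in cycling subcluster 9, and Cxcr4 from 205 to 42.3 in macrophage-like and from 224 to 91.3 in T cell-like subclusters.

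Macrophage-like cells carried Cxcr4 throughout, and their Cxcl12 level was highest in 1 subcluster, where it came from few cells. Cxcr4 ranged from 42.3 CPM (40.3 to 44.4) in subcluster 8 to 142 (138 to 146) in subcluster 2, led by Ms4a6b, and 205 (186 to 225) in mixed subcluster 12, led by the monocyte genes Plac8 and Chil3. Cxcl12 was 2.34 to 6.43 CPM in the macrophage-like subclusters other than 10, 13 and 14. Subclusters 13 (43.7 CPM) and 14 (46.8) were mixed, with 10 of 10 fibroblast genes and 7 of 8 endothelial genes. Subcluster 10, led by Lyve1, Cd163 and Cd209f, genes of perivascular resident macrophages, had 98.4 CPM of Cxcl12 against 5.48 in all other macrophage-like cells, and 15.3% of its cells after thinning.

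The Lyve1 subcluster's ligand signal came from few cells. It held 203 cells, of which 37, from 6 populations, had 566 reads between them, and 5 cells gave 33.2% of these. The highest cell had 59 reads. A0308, A0309 and A0310 held 4, 2 and 0 cells of the subcluster, beside 543, 718 and 654 other macrophage-like cells. The level was 13.2 to 602 CPM in the 6 populations with at least 10 cells, and the 602 of A0301 rested on 90 reads in 2 of its 12 cells. The ratio to other macrophage-like cells was 18.0 (16.3 to 19.8), 1.07 to 73.8 in those populations, and leaving out each population gave 15.6 to 22.1. With each 0 filled it was 4.07. In this comparison 18.6% of 6857 genes were called, 8.01% higher in the subcluster, and Cxcl12 was, while Cxcr4, at 80.8 against 75.9 CPM, was not. The 10 fibroblast genes summed to 546 CPM in the subcluster, the highest of the macrophage-like subclusters after mixed subcluster 13 (13612), where the other 12 had 272 to 508, and fibroblast-like cells had 43899. None of the 10 was at 0, and the 8 endothelial genes to 28.3. In cells of the subcluster with Cxcl12 the fibroblast list was 613 CPM and in those without 521, and Lyve1 was 1004 and 1442. The part of fibroblast or endothelial RNA in the signal was not tested.

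T cell-like subclusters had Cxcr4 at 91.3 to 224 CPM, the ends of that range resting on 16 and 9 cells, and the 3 largest at 111, 138 and 169. Cxcl12 was 0 in each of them except mixed subcluster 4, with 12.2 CPM in 56 cells, where the macrophage list summed to 17266 CPM. Of the clusters without a name, cluster 16 had 237 cells and was led by genes that include Klrg1, Foxp3 and Il2ra. Its pooled Cxcr4 level was 199 CPM (185 to 214) in 32.9% of cells, above all classes but the neutrophil-like one. Over 6 populations it ranged from 113 through 191 to 346 CPM. That range overlapped those of natural killer, B and T cell-like cells, so cluster 16 was not placed in order with them.

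Other genes of the pathway were read from lists, each beside the share of all tested genes called in the same direction. Between fibroblast-like and macrophage-like cells these shares were 21.6% higher in fibroblast-like and 17.4% higher in macrophage-like cells, and between endothelial-like and fibroblast-like cells 19.0% higher in endothelial-like and 14.1% higher in fibroblast-like cells. Of 12 genes that cut or hold the ligand, 8 were higher in fibroblast-like than macrophage-like cells, Dpp4, Mmp2, Mmp14 and Sdc2 among them, and 2 were higher in macrophage-like cells, Sdc1 and Gpc1. Against endothelial-like cells 6 of 11 were higher in fibroblast-like cells and 0 lower, with a median log2 ratio (endothelial over fibroblast) of -3.31 where that of all tested genes was 0.23. The list was not one of fibroblast-like cells alone. Mmp2, a metalloprotease that trims the ligand, was highest there at 746 CPM, but Dpp4 was highest in mesothelial-like cells at 636, the protease Ctsk in macrophage-like cells at 838 and the syndecan Sdc4 in epithelial-like cells at 927. Of 6 other ligands of these receptors, 3 stood higher in fibroblast-like cells than in either other class, namely Cxcl14, Adm and Penk, and 1, the CXCR4 ligand Mif, was higher in macrophage-like than fibroblast-like cells. Adm and Penk encode peptides that ACKR3 takes up, and Penk was at 719.7 CPM in fibroblast-like cells.

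Of 28 G proteins and effectors tested between fibroblast-like and macrophage-like cells, 17 were not called. Macrophage-like cells were higher for 10, including Dock2, Vav1, Rac2 and Pik3cg, and fibroblast-like cells for 1, Ptk2. Both directions together came to 11 of 28, near the 39.0% called over all genes, and the list's median log2 ratio (fibroblast over macrophage) was -0.51 where that of all genes was 0.0016. Of 14 genes of desensitization 6 were higher in macrophage-like cells, Rgs1 and Arrb2 among them, and 1, Rgs16, was higher in fibroblast-like cells. Rgs1, which shortens CXCR4 signals, reached 1972 CPM in macrophage-like cells. Endothelial-like cells exceeded fibroblast-like cells for 8 of 23 G proteins and effectors, and for 4 of 12 desensitization genes. In either list 0 were lower, beside the 19.0% of all genes higher in endothelial-like cells. Both directions together were near the 33.1% called over all genes. The median log2 ratios of the lists (endothelial over fibroblast) were 0.61 and 0.74 where that of all genes was 0.23. Gnai2, an inhibitory G protein subunit, peaked at 1338 CPM in endothelial-like cells.

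Of 9 regulators of Cxcl12 or Cxcr4 transcription tested, 4 were higher in fibroblast-like than macrophage-like cells, Epas1, Foxc1, Ebf1 and Klf2, and 0 were lower. Beside this, 21.6% of all genes were higher in fibroblast-like cells and 39.0% were called in either direction. Between endothelial-like and fibroblast-like cells 2 of 11 were higher in endothelial-like cells, Epas1 and Ebf3, which is near the 19.0% over all genes, and 1, Cebpb, was lower. Between T cell-like and macrophage-like cells 2 of 7 were higher in T cell-like cells, Hif1a and Tsc22d3, which is near the 21.3% over all genes. The 4 partners of CXCR4 tested between fibroblast-like and macrophage-like cells divided evenly, with Cd164 and Ackr1 higher in fibroblast-like cells and Cd74, the receptor of MIF, and Cd44 higher in macrophage-like cells. Cd74 reached 20059.8 CPM in dendritic cell-like cells. Of the other atypical receptors, Ackr2 and Ackr4 were higher in fibroblast-like than endothelial-like cells and Ackr1 was higher in endothelial-like cells. Of 11 dissociation genes, a check on handling, 8 were higher in fibroblast-like than macrophage-like cells (21.6% over all genes), and 1 was higher in fibroblast-like than endothelial-like cells (14.1%) with 0 lower.

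The genes whose levels ran most like each of the 3 were sought among 13511 genes over 52 groups, the classes with the 4 largest split into subclusters. For Cxcl12 these were Sparcl1 (r of 0.92), Stard13, Ly6c1, Fzd4 and Col4a2 (each 0.91). For Cxcr4 they were Ptpn18 (0.91), Hcls1 (0.90), Adgre5 (0.89), Cd53 (0.89) and Rac2 (0.88), and for Ackr3 Hoxa5 (0.95) with Ltbp4, Fbln2, Fhl1 and Npdc1 (each 0.94). The groups share 1 library and differ in depth, so the coefficients rank genes and carry no p. Among the members, Cxcl12 and Ackr3 had an r of 0.81 over the 52 groups, opposite in sign to the -0.94 within fibroblast-like subclusters, and Cxcr4 had -0.68 with Cxcl12 and -0.84 with Ackr3.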

How the data were processed

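The authors deposited a table of counts, reads of each gene in each cell as whole numbers, whose cell names start with the hashtag. Per the submitters' processing notes, cutadapt 2.10, Bowtie2 2.4.2, R 3.6.3 and the GRCm38 build were used, and other steps were not given in the sources used here. Per the file headers 12 of 12040 cell columns had no hashtag detected, and they were not used. The 12028 columns used hold 617812192 reads. Many genes lack low values.

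Cells under 200 genes or above 25% mitochondrial reads were dropped (1253 in all), and 254 doublets by hashtag and 236 by Scrublet (2.19%, 1 in both sets) were left out. Counts were scaled to 10000, logged and clustered with scanpy 1.11.5 (2000 variable genes, 30 components, 15 neighbours, Leiden resolution 1, seed 7), leaving out the 3 genes and the pathway lists. The 25 clusters were named from marker lists with thresholds set after the clusters were seen, so names may differ from the study's own. Poisson intervals of CPM are exact, at 95%. A population needed at least 10 cells of a group for a value. The 2-fold call between classes and the search for like genes were tested on simulated Poisson counts. These counts did not have the gap in low values of the real ones. The members and lists were chosen with earlier results of these data known. Beside the 3 genes and the leading genes of clusters, the text names the 5 genes most like each member, genes of the lists that are called, and examples from the 4 of each list with the highest level in a class. The tag library was not used here.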

Additional observations from a re-analysis of the deposited data

How the results depend on the processing

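No paired analysis was possible because the labels give 1 pooled transcriptome library and no replicate numbers shared between groups; ratios within each hashtag population stand with the results. Of 193 alternative values for 16 results, 110 stayed near the value reported, 83 moved and 0 reversed. A ratio was counted as moved when it left the Poisson interval of the reported value, which covers counting error only. Counts of called genes and lists of like genes had a fold limit instead. The tally thus mixes unlike limits and does not measure stability. Leaving out the mixed subclusters and groups under 50 cells was chosen after seeing the data, as were the ratios between fibroblast clusters and for the Lyve1 subcluster, for which other clusterings give no value. Filling each 0 with the most it could hide left the Cxcr4 ratio as it was and gave 1.90 for Cxcl12 in endothelial-like over fibroblast-like cells (1.83 reported), 6.74 in fibroblast-like over macrophage-like cells (51.8), 5.85 in fibroblast cluster 7 over cluster 1 (8.55) and 4.07 in the Lyve1 subcluster over other macrophage-like cells (18.0). For Ackr3 it gave 2.03 in fibroblast-like over endothelial-like cells (5.55) and 5.09 in cluster 1 over cluster 7 (6.81). The mean of per-cell CPM gave, in the same order for Cxcl12, 2.17, 28.4, 9.88 and 12.1, and 7.57 for Ackr3 between clusters. Thinning gave 2.15, 25.7, 9.51 and 13.3, and 8.98. Without mixed subclusters the Cxcl12 ratios were 1.90, 66.0 and 25.9 (endothelial, macrophage and Lyve1 comparisons). Classes from marker counts alone gave 2.07 and 58.0 for Cxcl12 and 5.14 for Ackr3, and keeping doublets 1.78, 30.9 and 4.88. Without the 1% deepest cells fibroblast-like over macrophage-like Cxcl12 was 48.0. Cxcr4 in T cell-like over macrophage-like cells (1.72) was 2.03 at Leiden resolution 0.5, 1.54 with no mitochondrial filter and 1.45 with doublets kept. The T cell-like class held 852, 123 and 124 cells in these settings against 452, so they do not describe the same cells. The cause of the other moves was not tested.

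Leaving out each population in turn gave, for Cxcl12, 1.58 (without A0303) to 2.16 (without A0310) in endothelial-like over fibroblast-like cells, 41.5 to 58.9 in fibroblast-like over macrophage-like cells, 8.06 to 9.34 between fibroblast clusters and 15.6 to 22.1 for the Lyve1 subcluster. For Cxcr4 it gave 1.60 to 1.92, and for Ackr3 5.16 to 6.18 between classes and 6.14 to 7.55 between clusters. Without A0310 or in the other settings above that exceed 2, the endothelial-like over fibroblast-like ratio of Cxcl12 passes the 2-fold call. Shares of cells moved with the reads asked for. Cxcl12 in endothelial-like cells was 49.3% at 6 reads and 24.1% at 20 (47.0% to 50.5% leaving out populations). Cxcr4 in T cell-like cells was 16.4% at 6 reads, 36.3% at 1, 1.99% at 20, 23.9% thinned, 12.2% with no mitochondrial filter, 12.1% with doublets kept and 13.0% without mixed subclusters (14.9% to 17.2%). Ackr3 in fibroblast-like cells was 63.3% at 6 reads, 44.4% at 20, 57.1% thinned and 56.6% in classes from marker counts (62.0% to 65.5%). Genes called over all tested were 2689, 3021 and 2518 in the endothelial, fibroblast and T cell comparisons as reported, 5239, 5654 and 5670 with no minimum and 1055, 1100 and 853 with a minimum of 100 CPM. Of the 5 genes most like each member, Spearman correlation kept 1 for Cxcl12, 3 for Cxcr4 and 1 for Ackr3, and leaving out groups under 50 cells kept 3, 2 and 4.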

Other observations

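Cluster 10 (442 cells, median 11976.5 reads), which carried macrophage genes but stayed without a name, had 70.8 CPM of Cxcr4 (64.7 to 77.2), 9.81 of Cxcl12 and 4.48 of Ackr3. Cluster 16, also without a name, had 3.30 CPM of Cxcl12 from 1 cell with at least 6 reads, and its 76 reads of Ackr3 likewise came from 1 cell.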
